A study of Homo sapiens with 18 samples.

Results

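The S100 genes encode small calcium-binding proteins, and the levels of 10 of them, S100A2, S100A4, S100A6, S100A7, S100A8, S100A9, S100A10, S100A14, S100A16 and S100P, were followed in 3 head and neck squamous cell carcinoma lines with and without hepatocyte growth factor (HGF), the ligand of the Met receptor. The 10 genes were taken by name from a count table of 19901 genes, which holds 21 genes with S100 symbols. Detroit 562 is a line from a metastasis of a tumor of the pharynx, FaDu is from a tumor of the hypopharynx and SCC-9 is from a tumor of the tongue. Each line had 3 untreated control libraries and 3 libraries from cells given 50 ng/mL HGF for 16 h, 18 libraries in all, and the record of the series gives 48 h in place of 16 h. Each line stands for its tumor site alone, and SCC-9 was grown in a medium of its own (DMEM F12 with hydrocortisone, where the others had MEM-α), so the line and the medium cannot be told apart for SCC-9. Nothing in the labels says that libraries of a group came from separate cultures beyond the statement that the experiment was repeated, so p-values measure the spread between these libraries.

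S100 proteins carry a pair of EF-hand calcium-binding loops and mostly work as dimers that bind target proteins when calcium rises. Most of the family is encoded in a cluster on the long arm of chromosome 1, beside the genes of the cornified envelope, and many members are made by squamous epithelium. S100A8 and S100A9 form calprotectin, a secreted antimicrobial dimer that binds zinc and manganese, and S100A7 (psoriasin) is an antimicrobial protein of inflamed and differentiating epidermis. S100A2 is a p63 target of basal keratinocytes, S100A10 pairs with annexin A2 at the plasma membrane, S100A6 (calcyclin) binds the adaptor CACYBP, and S100A4 binds non-muscle myosin and is known for its part in cell motility. S100P binds ezrin and the receptor AGER, and S100A14 and S100A16 are epithelial members that can pair with each other.

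In the annotation of the table (GRCh38.p12), 9 of the 10 genes lay within 1.63 Mb of chromosome 1, from S100A10 at chr1:151982915-151994390 to S100A14 at chr1:153614255-153616986, and S100P lay on chromosome 4 at chr4:6693069-6697170. S100A9 was the only member of the chromosome 1 set on the plus strand (chr1:153357854-153361027), and S100A8 lay on the minus strand (chr1:153390032-153391188), with S100A12 between them. The extent of S100A4 (chr1:153543613-153550136, minus strand) holds the whole of S100A3 on the same strand, so reads of S100A3 were also counted for S100A4. No other member shared its strand with an overlapping gene of the table.

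The 100 bases before a start site are shown for 4 members (RefSeq, build GRCh38.p14, written 5′ to 3′ on the strand of the gene). These members passed the test for a change with HGF in Detroit 562 in the fit that matches libraries by replicate number. S100A2 is chr1:153565845-153565944 (minus strand), S100A8 is chr1:153391074-153391173 (minus strand), S100A9 is chr1:153357754-153357853 (plus strand) and S100P is chr4:6693778-6693877 (plus strand). Capitals mark the AP-1 letters TGANTCA in S100A2 and the TATA letters TATAAA in S100A8, S100A9 and S100P. S100A2 and S100A8 have further start sites, which are not shown and whose 100 bases hold none of these letters.
S100A2: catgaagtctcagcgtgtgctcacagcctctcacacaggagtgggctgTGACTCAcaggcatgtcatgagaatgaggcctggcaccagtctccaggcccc
S100A8: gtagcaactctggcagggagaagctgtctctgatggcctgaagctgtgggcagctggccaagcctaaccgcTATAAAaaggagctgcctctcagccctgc
S100A9: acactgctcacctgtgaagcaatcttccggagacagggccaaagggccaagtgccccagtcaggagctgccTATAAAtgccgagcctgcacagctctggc
S100P: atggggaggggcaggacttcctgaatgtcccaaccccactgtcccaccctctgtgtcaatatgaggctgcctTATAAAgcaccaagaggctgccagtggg

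All 10 members matched a RefSeq entry, with 14 start sites among them. Over windows of 300 bases, from 250 before to 50 after the start, TGANTCA (the same letters on both strands, with N any base) stood in 1 of the 14, the upstream of the S100A2 starts, where it began 52 bases before the start. It stood in 7.71% of all 35116 windows. TATAAA, searched on both strands as TATAAA and TTTATA, stood in 6 of the 14 windows, which belong to S100A4, S100A7, S100A8, S100A9 and S100P, and in 11.5% of all windows. It began 28 to 31 bases before the start in each of these genes, and a window from a further S100A8 start holds the same site 126 bases before that start. The C/EBP letters TTGCNNAA and their reverse complement TTNNGCAA stood in 0 of the 14 windows and in 10.5% of all. These are matches of letters in fixed windows, and no binding was measured here.

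The libraries held 35304770 to 44003970 counts, and the 10 members took 0.21 to 0.344% of them. All 7 epithelial and squamous markers (EPCAM, CDH1, KRT5, KRT14, KRT8, KRT18 and TP63) had at least 1 CPM (the depth-scaled count of a library after edgeR's TMM factors) in every library of 5 groups, and 6 of the 7 in HGF-treated Detroit 562, where KRT14 was below it in at least 1 library. Their summed level was 5255 to 7510 in untreated and 3444 to 5047 CPM in HGF-treated Detroit 562. Of 6 myeloid markers, the cells in which S100A8 and S100A9 are abundant, PTPRC, LYZ and CSF3R had 0 to 5 counts in every library and ITGAM 8 to 42. CD14 had 1 to 3 counts in Detroit 562, 120 to 239 in FaDu and 282 to 413 in SCC-9, and CSF1R had 2 to 80, 3 to 37 and 40 to 76. The summed level of the myeloid list in untreated cells was 9.86 to 11.4 CPM in SCC-9, the line with the most S100A8 and S100A9, 6.05 to 6.58 in FaDu and 0.495 to 0.842 in Detroit 562. Of 6 fibroblast markers, cells known for S100A4, COL3A1 and LUM had at most 10 counts in every library and PDGFRA at most 17, and DCN had 40 to 73 in SCC-9 and at most 1 elsewhere. The summed level of the fibroblast list ran from 3.6 CPM in FaDu to 99.4 in SCC-9, and it was mostly COL1A1 in those lines and COL1A1 and COL1A2 in Detroit 562. The part of these markers in the S100 levels was not tested. The levels below are of bulk RNA, in which fewer expressing cells and less RNA per cell cannot be told apart.

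Levels were compared per length (CPM divided by the exon length in kb), and 5 of the 10 members were high in every line. S100A8 and S100A9 separated all the lines, S100A7 set only SCC-9 apart and S100P only FaDu. S100A4 was low in all (7.68, 5.94 and 4.13 in untreated Detroit 562, FaDu and SCC-9). S100A2, S100A10, S100A14 and S100A16 were each between 142 and 633 in every untreated line. S100A6 was at 451 in Detroit 562 and 487 in SCC-9 but at 110 in FaDu. S100A9 ranged most widely of the abundant members, at 650 in SCC-9, 168 in Detroit 562 and 4.64 in FaDu.

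**Figure D1:**
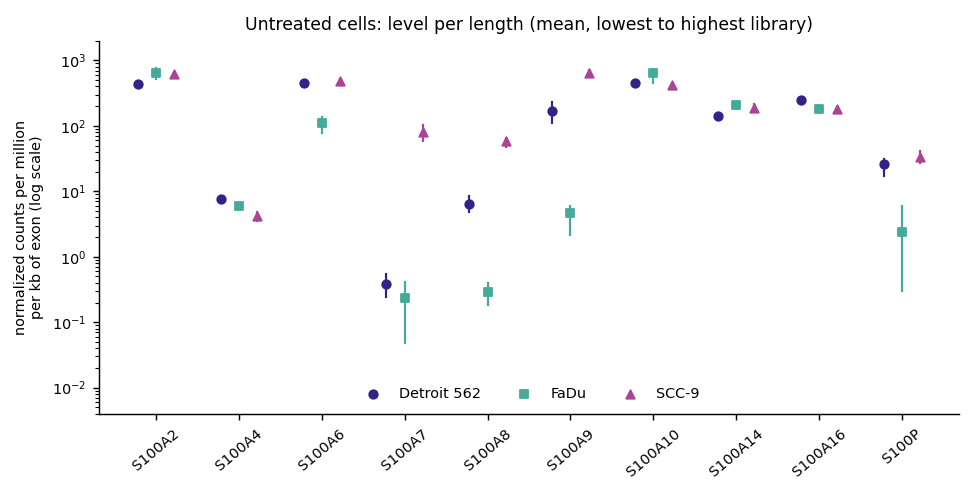
Level of each S100 gene in untreated cells per kb of exon, in normalized CPM on a log scale, with the mean of 3 libraries as a symbol and a bar from the lowest to the highest library. S100A8 and S100A9 separate all the lines, with S100A9 at 650 in SCC-9 and 4.64 in FaDu. S100A7 sets only SCC-9 apart and S100P only FaDu, while S100A2 lies at 433, 632 and 618 in Detroit 562, FaDu and SCC-9.

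In untreated Detroit 562 the order per kb was S100A6, S100A10 and S100A2 (451, 449 and 433, with overlapping libraries), then S100A16 (249.0), S100A9 and S100A14 (168 and 142, overlapping), S100P (26.4), S100A4 and S100A8 (7.68 and 6.35, overlapping) and S100A7 (0.377). In FaDu it was S100A10 and S100A2 (633 and 632, overlapping), S100A14 (209), S100A16 (180) and S100A6 (110), followed by S100A4 (5.94), S100A9 (4.64), S100P (2.42), S100A8 (0.289) and S100A7 (0.235), each of which overlapped its neighbour. SCC-9 had S100A9 and S100A2 on top (650 and 618, overlapping), S100A6 and S100A10 (487 and 417, overlapping), S100A14 and S100A16 (187 and 180, overlapping), S100A7 and S100A8 (80.5 and 59.6, overlapping), S100P (34.0) and S100A4 (4.13). Because reads were counted over whole genes and exon lengths come from a later annotation (GENCODE 44), these orders are approximate, and the S100A4 level includes S100A3.

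The untreated lines differed from each other in most genes, and the members did so at about the same rate. A gene counts as called here when edgeR's quasi-likelihood test over 15475 genes gave it an adjusted p below 0.1 and its log2 fold change was 0.4 or more in size, which are the limits used in the study. Between untreated Detroit 562 and untreated FaDu 8 of 10 members were called (5 higher in Detroit 562 and 3 lower), where 61% of all tested genes were called (31.2% higher and 29.8% lower). Between Detroit 562 and SCC-9 6 were called (2 higher and 4 lower), beside 65.4% of all genes (31.4 and 33.9%), and between FaDu and SCC-9 7 were called (2 higher and 5 lower), beside 64.2% (30.7 and 33.5%).

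The antimicrobial members set the lines furthest apart. In the 3 untreated libraries of each line, S100A7 had 1209, 1613 and 1965 counts in SCC-9, against 5, 6 and 10 in Detroit 562 and 1, 8 and 5 in FaDu. Every SCC-9 library lay far above every library of the other lines, and the fitted log2 difference was -7.73 (standard error 0.368, edgeR adjusted p = 7.71e-12) for Detroit 562 and -8.40 (standard error 0.389, adjusted p = 6.52e-12) for FaDu, the latter -9.05 without FaDu control 2. Its neighbour S100A7A, a near copy of S100A7, showed the same contrast at a lower level, with 0 or 1 count in every Detroit 562 and FaDu library and 42 to 52 counts in untreated SCC-9. The methods do not say how reads that fit both copies were treated, and such a read may have been counted for each gene. The levels of the pair are thus uncertain, and the S100A7A contrast may not be independent of that of S100A7.

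S100A8 stood at 41.9, 58.7 and 58.8 CPM in untreated SCC-9, 5.07, 7.66 and 4.25 in Detroit 562 and 0.356, 0.251 and 0.164 in FaDu. S100A9 stood at 319.3, 382.2 and 416.0 in SCC-9, 92.0, 133.4 and 63.0 in Detroit 562 and 3.47, 3.26 and 1.24 in FaDu. For both genes no libraries of different lines overlapped, and the order was SCC-9, Detroit 562, FaDu. The log2 difference between Detroit 562 and FaDu was 4.44 (standard error 0.397, adjusted p = 2.76e-08) for S100A8 and 5.18 (standard error 0.421, adjusted p = 8.21e-09) for S100A9, and SCC-9 lay above Detroit 562 by 9.39-fold for S100A8 and 3.87-fold for S100A9. S100A8 counts were 14.2 ± 1.12% (SD, n = 3) of the S100A9 counts in SCC-9, 10.4 ± 2.76% in FaDu and 6 ± 0.66% in Detroit 562, whose libraries lay below those of the other lines.

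S100P, at 14.4, 14.9 and 8.02 CPM in untreated Detroit 562 and 12.7, 15.9 and 19.4 in SCC-9, was low and uneven in FaDu, at 0.522, 2.76 and 0.141. The FaDu libraries differed among themselves by 19.6-fold, and the HGF-treated libraries of the line repeated that order at 0.464, 1.96 and 0.169, so that replicate 2 was high and replicate 3 low in both groups. The log2 difference of Detroit 562 from FaDu was 3.46 (standard error 0.662, adjusted p = 1.69e-04) and that of FaDu from SCC-9 -3.83 (standard error 0.664, adjusted p = 6.01e-05). Without FaDu control 2 these became 5.22 and -5.58.

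The widely expressed members differed less between the lines. S100A6 was 4.10-fold higher in Detroit 562 than in FaDu (adjusted p = 5.81e-08) and 4.42-fold higher in SCC-9 than in FaDu (adjusted p = 2.84e-08). S100A2 was lower in Detroit 562 than in FaDu (log2 difference -0.55, standard error 0.122, adjusted p = 7.18e-04) and than in SCC-9 (-0.51, standard error 0.122, adjusted p = 0.0011), though without FaDu control 3, its highest untreated library, the difference from FaDu was -0.37 and below the minimum fold change. S100A16 was 1.38-fold higher in Detroit 562 than in FaDu and 1.39-fold higher than in SCC-9 (adjusted p = 1.61e-05 and 1.38e-05). S100A14 was lower in Detroit 562 than in FaDu (-0.55, adjusted p = 2.36e-04), and its difference from SCC-9 of -0.40 (adjusted p = 0.00343) lay just short of the minimum fold change and past it without Detroit 562 control 1 or 2 or SCC-9 control 1 or 2 (-0.41 to -0.48).

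S100A10 was highest in FaDu, with log2 differences of -0.50 for Detroit 562 against FaDu (adjusted p = 0.0305) and 0.60 for FaDu against SCC-9 (adjusted p = 0.0101). Its FaDu control 3 (459) lay far below FaDu controls 1 and 2 (753 and 711) and inside the range of the other lines, and without control 1 or control 2 the difference from Detroit 562 was -0.36 and -0.42 with an adjusted p of 0.138 and 0.102. S100A4 was higher in Detroit 562 (0.89, adjusted p = 1.04e-04) and in FaDu (0.52, adjusted p = 0.00879) than in SCC-9. Its log2 difference between Detroit 562 and FaDu was 0.37 (adjusted p = 0.0479), below the minimum fold change, and 0.46 without Detroit 562 control 1. With the S100A3 reads taken off, the 3 differences of S100A4 were 1.83, 0.93 and 0.89 in that order, with adjusted p of 2.39e-07, 4.59e-04 and 3.82e-04.

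**Figure D2:**
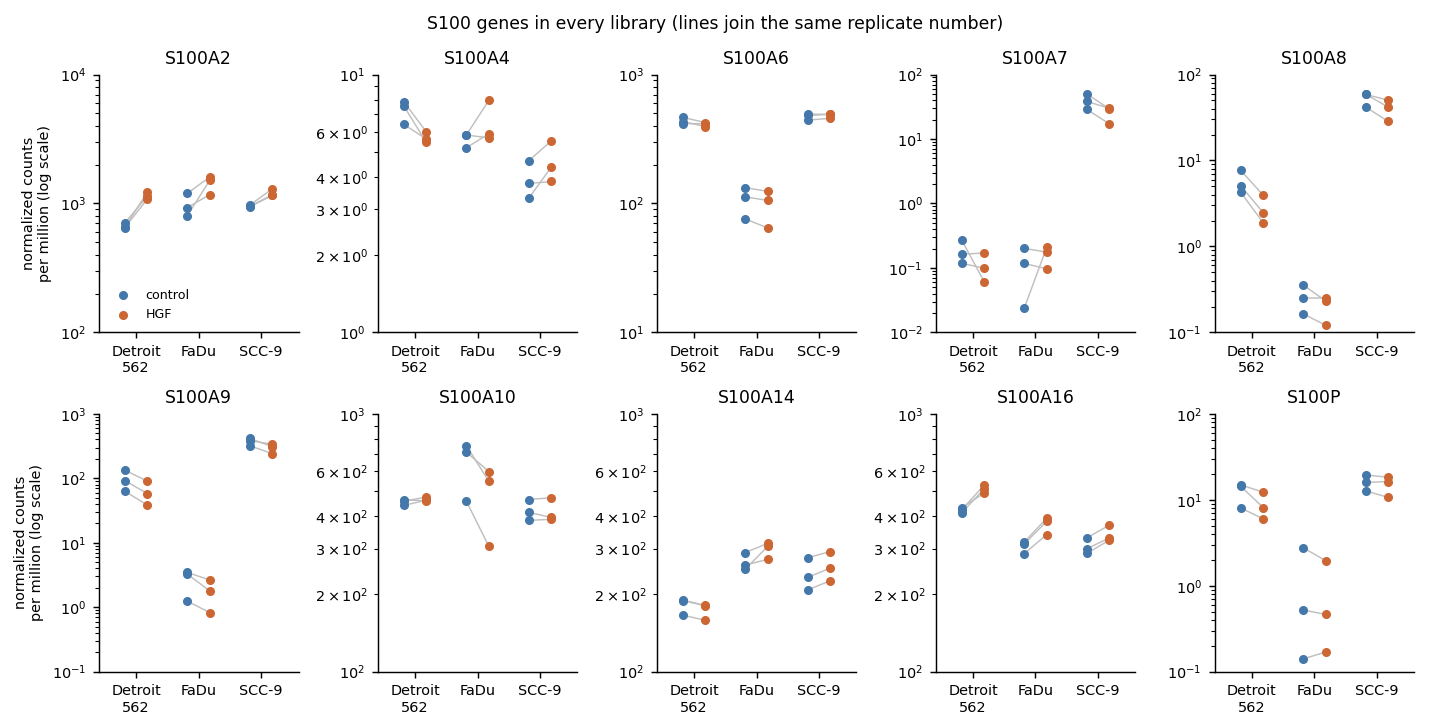
Normalized CPM of each S100 gene on a log scale in all 18 libraries, control in blue and HGF in orange, with grey lines joining libraries of the same replicate number. S100A2 and S100A16 lines slope up and S100A9 lines slope down in 3 of 3 pairs in every line, and S100A8 falls from 4.25 to 7.66 down to 1.89 to 3.95 in Detroit 562.

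The response to HGF was asked of each line separately. In Detroit 562 2 of the 10 members were called, S100A2 up and S100A8 down, where 17.9% of the tested genes passed (6.16% up and 11.7% down). Libraries of the same number varied together, so a blocked fit with a term for the number inside each line was run beside it. In the blocked fit the count in Detroit 562 was 4, with S100A9 and S100P down in addition, beside 21.5% of all genes (7.13% up and 14.4% down). In FaDu 0 members were called by edgeR without the block, where 4 genes or 0.0258% of all genes were called, and 2 members had an unadjusted p below 0.05. DESeq2 called 1 member in FaDu, S100A2, beside 0.464% of all genes, and the blocked fit called 3, S100A2 up and S100A9 and S100A10 down, beside 5.6% (2% up and 3.6% down). In SCC-9 0 members were called by edgeR (0% of all genes, and 3 members with an unadjusted p below 0.05) and 0 by DESeq2 (0.13% of all genes), and the blocked fit called 2, S100A7 and S100A8, both down, beside 1.97% (0.562% up and 1.41% down). With no minimum fold change the blocked fit passed 6, 6 and 5 members in Detroit 562, FaDu and SCC-9, beside 53.6, 17.4 and 5.29% of all genes.

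**Figure D3:**
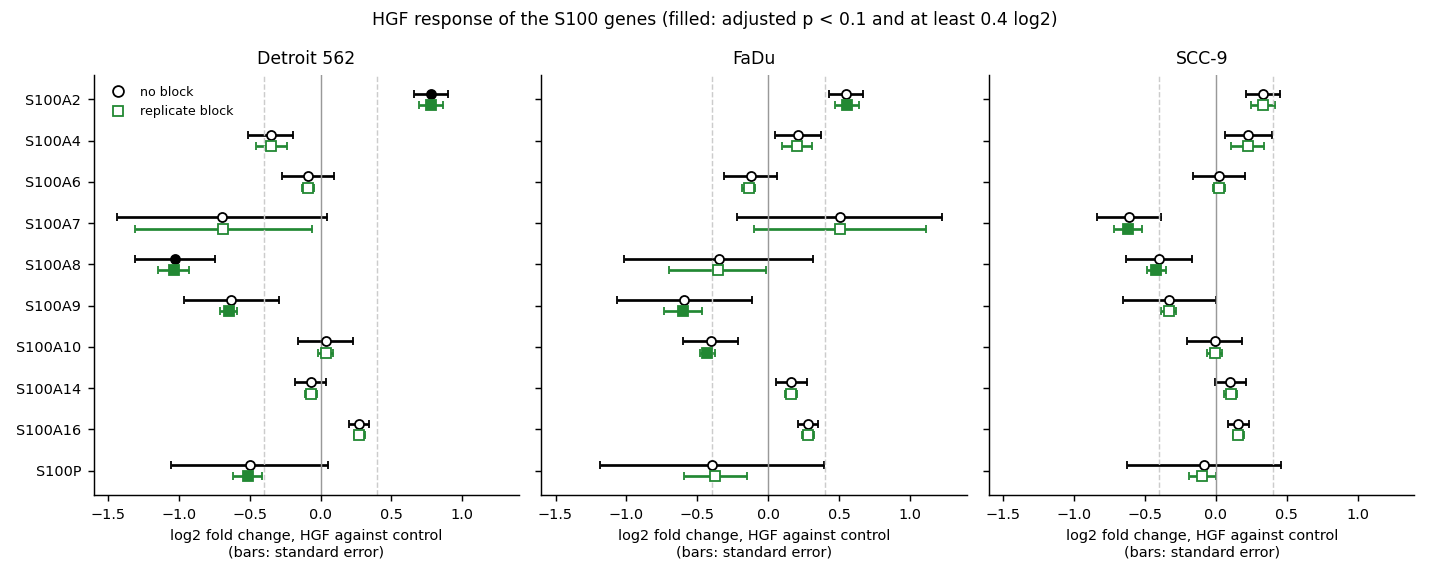
Log2 fold change with HGF of each S100 gene in the 3 lines, from edgeR without the block (circles) and from the blocked fit (squares), with bars of 1 standard error and dashed lines at the minimum fold change of 0.4. Filled symbols passed both thresholds, and the squares keep the place of the circles with shorter bars, as for S100A9 in Detroit 562 (-0.63 with a standard error of 0.333 and -0.65 with 0.0587).

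S100A2, the member of basal keratinocytes, had the largest rise. Its levels in Detroit 562 were 653.2, 706.6 and 649.7 CPM in the controls and 1222, 1141 and 1085 with HGF. The groups lay well apart, and the log2 fold change was 0.78 (1.72-fold, standard error 0.122, edgeR adjusted p = 0.001). FaDu controls stood at 805.8, 930.1 and 1196 CPM and HGF-treated FaDu at 1511, 1173 and 1608. Control 3 lay above HGF-treated library 2, and each HGF-treated library lay above the control of its number. Its fold change was 0.55 on the log2 scale (standard error 0.122, adjusted p = 0.307), and in the blocked fit it was 0.56 (standard error 0.0825, adjusted p = 6.59e-04) and called. It was also called without the block when FaDu control 3 or FaDu HGF 2 was left out (0.72 and 0.67, adjusted p = 0.0401 and 0.0396), while without FaDu control 1 or FaDu HGF 3 it was 0.43 and 0.47 with an adjusted p of 0.98 and 0.959.

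SCC-9 showed the smallest S100A2 difference, from 955.2, 941.4 and 971.4 to 1164, 1154 and 1297. No libraries overlapped, and the log2 fold change of 0.33 (standard error 0.122) had an adjusted p of 1 in edgeR and of 0.0396 in the blocked fit, below the minimum fold change. After HGF S100A2 was the member with the highest level per kb in each line, at 743, 925 and 779 in Detroit 562, FaDu and SCC-9.

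S100A16 showed a smaller shift of the same sign in every line. It went from 424.5, 432.5 and 413.5 to 529.6, 493.2 and 512.2 in Detroit 562, from 313.0, 287.0 and 318.0 to 382.8, 340.0 and 393.7 in FaDu, and from 287.4, 299.3 and 330.2 to 323.5, 330.3 and 369.8 in SCC-9. The groups did not overlap in Detroit 562 and FaDu and overlapped in SCC-9, where control 3 was as high as HGF-treated library 2. The log2 fold changes were 0.27, 0.28 and 0.16 with standard errors of 0.0713, 0.0714 and 0.0713, all below the minimum fold change. Their adjusted p was 0.012, 0.388 and 1 in edgeR and 7.44e-05, 5.39e-04 and 0.0454 in the blocked fit.

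In each of the 3 lines all 3 HGF libraries had more S100A2 and S100A16 than the controls of their number, which held for 30.6, 20 and 23.9% of all genes in Detroit 562, FaDu and SCC-9 taken singly. Over all members, the HGF libraries lay wholly above the controls for 2 in Detroit 562 (S100A2 and S100A16), 1 in FaDu (S100A16) and 1 in SCC-9 (S100A2), beside 18.1, 4.05 and 8.3% of all genes. They lay wholly below for 2 in Detroit 562 (S100A4 and S100A8), beside 20.1%, and for 0 in FaDu and SCC-9, beside 5.36 and 9.12%.

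Of the calprotectin genes, S100A8 fell in Detroit 562. S100A8 in Detroit 562 had 5.07, 7.66 and 4.25 CPM in the controls and 2.47, 3.95 and 1.89 with HGF, from 158 to 282 and from 62 to 139 raw counts. All HGF libraries lay below all controls, and S100A8 fell by 1.03 on the log2 scale (2.04-fold, standard error 0.284, adjusted p = 0.0159). It was called with each of the 6 libraries left out, with an adjusted p of at most 0.096. S100A9 had 92.0, 133.4 and 63.0 in the controls and 57.8, 90.4 and 38.3 with HGF. The groups overlapped because replicate 2 was high and replicate 3 low in each, while all 3 pairs differed by a similar amount (log2 ratios of -0.67, -0.56 and -0.72). The log2 fold change of -0.63 had a standard error of 0.333 and an adjusted p of 0.176 in edgeR, and in the blocked fit it was -0.65 with a standard error of 0.0587 and an adjusted p of 9.39e-07. Without Detroit 562 control 3 or HGF 2 it was called without the block as well (-0.86 and -0.999, adjusted p = 0.0691 and 0.0546), while without control 2 or HGF 3 it was -0.32 and -0.38 with an adjusted p of 0.578 and 0.483. The summed myeloid markers were at 0.445 to 2.92 CPM in HGF-treated Detroit 562.

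In SCC-9 S100A8 had 41.9, 58.7 and 58.8 in the controls and 28.5, 50.3 and 41.8 with HGF, and S100A9 had 319.3, 382.2 and 416.0 and then 242.1, 338.6 and 309.0. The groups overlapped for both genes, with replicate 1 the lowest in each group. The log2 fold change of S100A8 was -0.40 (standard error 0.235, adjusted p = 1) and in the blocked fit -0.42 (standard error 0.0662, adjusted p = 0.00337), which was called. That of S100A9 was -0.33 (standard error 0.327, adjusted p = 1) and in the blocked fit -0.33 (standard error 0.0551, adjusted p = 0.00444), below the minimum fold change. The summed myeloid markers, mostly CD14, were at 9.86 to 11.4 CPM in SCC-9 controls and 8.13 to 9.64 with HGF, and their part in these values was not tested.

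FaDu had so little of the pair that S100A8 rested on 5 to 15 counts per library, and its log2 fold change was -0.35 with a standard error of 0.667. FaDu S100A9 counts were 146, 130 and 53 in the controls and 114, 71 and 34 with HGF. The groups overlapped, and every pair was lower with HGF. On the log2 scale the difference was -0.59 (standard error 0.477, adjusted p = 0.731), and in the blocked fit it was -0.60 (standard error 0.132, adjusted p = 0.00937) and called. Each line had less S100A9 with HGF in all 3 same-numbered pairs, as did 32.3, 23.3 and 24.6% of all genes in Detroit 562, FaDu and SCC-9 taken singly.

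The balance of the calprotectin partners was measured as the S100A8 counts in percent of the S100A9 counts of the same library, which needs no scaling between libraries. In Detroit 562 it was 5.51, 5.74 and 6.75% in the controls and 4.28, 4.37 and 4.92% with HGF, or 6 ± 0.66% and 4.52 ± 0.35% (SD, n = 3 and 3). The groups did not overlap, and the two-sided exact permutation test gave p = 0.1, the smallest that 3 against 3 allows. In FaDu the means were 10.4 ± 2.76% and 12.5 ± 3.26% and in SCC-9 14.2 ± 1.12% and 13.4 ± 1.54%, with overlapping libraries and p = 0.5 in the exact permutation test for each.

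**Figure D4:**
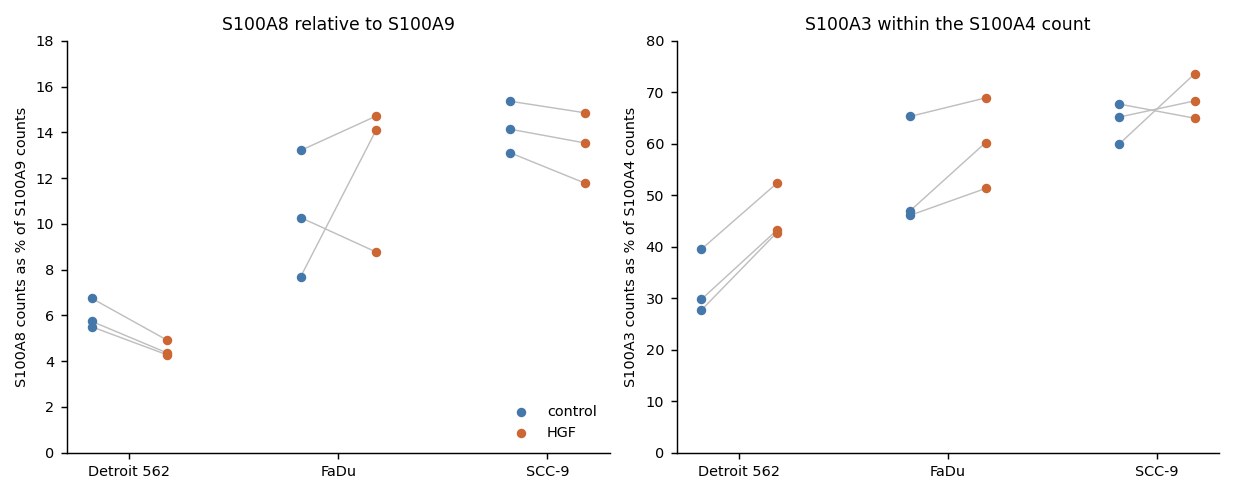
Left, S100A8 counts in percent of the S100A9 counts in each library, and right, S100A3 counts in percent of the S100A4 counts, control in blue and HGF in orange, with grey lines joining libraries of the same replicate number. In Detroit 562 all 3 HGF libraries have a lower S100A8 share than the controls (6 ± 0.66% and 4.52 ± 0.35%), and S100A3 makes up 27.7 to 73.6% of the S100A4 count.

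S100A7 could be followed in SCC-9 alone, with 28.9, 38.3 and 50.1 CPM in the controls and 17.2, 30.0 and 29.4 with HGF. HGF-treated libraries 2 and 3 lay just above control 1, and each was below the control of its number. On the log2 scale this was -0.61, with a standard error of 0.226 and an adjusted p of 1, and in the blocked fit it was -0.62 (standard error 0.1, adjusted p = 0.00394) and called. In the other lines the gene had 1 to 10 counts, and its log2 fold changes of -0.69 and 0.50 in Detroit 562 and FaDu had standard errors of 0.742 and 0.722.

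S100P, the ezrin-binding member, went from 14.4, 14.9 and 8.02 to 8.12, 12.2 and 5.99 CPM in Detroit 562. The groups overlapped, and each pair was lower with HGF. The log2 fold change was -0.50, with a standard error of 0.556 and an adjusted p of 0.541, and became -0.51 in the blocked fit (standard error 0.102, adjusted p = 8.68e-04), which was called. SCC-9 had a log2 fold change of -0.08 (standard error 0.541), and FaDu had -0.40 (standard error 0.788), which took either sign when single libraries were left out (-1.81 to 1.36).

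S100A4 needs its neighbour beside it, since S100A3 supplied 27.7 to 39.5% of its counts in Detroit 562 controls and 42.7 to 52.3% with HGF. S100A4 counts in Detroit 562 were 272, 278 and 291 in the controls and 227, 192 and 197 with HGF, and the S100A3 counts were 81, 77 and 115 and then 98, 82 and 103. The S100A4 groups did not overlap and those of S100A3 did. The log2 fold change of S100A4 as counted was -0.35 (standard error 0.162, adjusted p = 0.119), and -0.35 in the blocked fit (adjusted p = 0.016), below the minimum fold change. With the S100A3 reads taken off, 191, 201 and 176 counts in the controls and 129, 110 and 94 with HGF were left, and S100A4 fell by 0.68 on the log2 scale (edgeR adjusted p = 0.0153, and 8.69e-04 in the blocked fit). The summed fibroblast markers of Detroit 562 were also lower with HGF, at 30.2 to 54.6 CPM in the controls and 15.3 to 27.8 with HGF, with COL3A1, DCN and LUM at 0 to 2 counts, and their part in the S100A4 change was not tested.

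In FaDu and SCC-9 the S100A4 log2 fold changes were 0.21 and 0.23 as counted (adjusted p = 0.714 and 1) and -0.06 and 0.06 without the S100A3 reads (adjusted p = 0.947 and 1). S100A3 itself had log2 fold changes of 0.15, 0.42 and 0.31 in Detroit 562, FaDu and SCC-9 and was called in FaDu in the blocked fit (0.41, adjusted p = 0.0661). Reads of longer S100A4 transcripts that fall within S100A3 cannot be told apart from S100A3 in this table, so the remainder is a lower estimate of S100A4.

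The other widely expressed members had small fold changes. S100A6 had log2 fold changes of -0.09, -0.12 and 0.02 in Detroit 562, FaDu and SCC-9, with standard errors of 0.185 to 0.187. S100A14 had -0.07, 0.16 and 0.10, with standard errors of 0.109 to 0.11. In the blocked fit FaDu S100A14 was at 0.16 (standard error 0.044, adjusted p = 0.0284) and FaDu S100A6 at -0.14 (standard error 0.0448, adjusted p = 0.0636). Both were below the minimum fold change, and the 2 genes had an adjusted p of at least 0.109 in Detroit 562 and SCC-9 in that fit. S100A10 had 0.04 in Detroit 562 and -0.01 in SCC-9.

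FaDu was the exception for S100A10, with 753.4, 710.5 and 459.0 CPM in the controls and 548.0, 597.4 and 306.6 with HGF. Control 3 lay below HGF-treated libraries 1 and 2, and every pair was lower with HGF. In log2 terms the change was -0.41 (standard error 0.194, adjusted p = 0.619), and in the blocked fit it was -0.43 (standard error 0.0536, adjusted p = 1.80e-04) and called. FaDu replicate 3 was also the lowest of its group for S100A6 (75.8 and 64.6) and S100A9 (1.24 and 0.822) in both groups.

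Whether the lines differed in their response was tested by the interaction of line and treatment at an adjusted p below 0.1. In edgeR without the block 0 members passed in each of the 3 contrasts, where 0.239% of all genes passed for Detroit 562 minus FaDu, 0.924% for Detroit 562 minus SCC-9 and 0% for FaDu minus SCC-9. At an unadjusted p below 0.05 there were 1, 2 and 0 members, and DESeq2 also passed 0 members in each (beside 1.79, 4.56 and 0.0154% of all genes).

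With the block, 3 members passed for Detroit 562 minus FaDu (19.1% of all genes), 6 for Detroit 562 minus SCC-9 (26.9%) and 1 for FaDu minus SCC-9 (1.32%). The 6 were S100A2 (0.45, adjusted p = 0.0157), S100A4 (-0.57, 0.0217), S100A8 (-0.62, 0.00436), S100A9 (-0.31, 0.0148), S100A14 (-0.17, 0.0685) and S100P (-0.42, 0.0471), given as log2 differences in response with their adjusted p. In that fit the S100A2 change was more positive, and those of S100A8 and S100A9 more negative, in Detroit 562 than in SCC-9. S100A10 differed between FaDu and both other lines (0.47 for Detroit 562 minus FaDu, adjusted p = 0.00183, and -0.42 for FaDu minus SCC-9, adjusted p = 0.0229). S100A4 and S100A14 also passed for Detroit 562 minus FaDu (-0.55 and -0.23, adjusted p = 0.0296 and 0.0284). These contrasts share the libraries of the line they have in common.

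Of the 11 other S100 genes in the table, 4 had enough counts to be tested, and 0 of the 4 were called with HGF in each line in edgeR without the block, with 0, 1 and 1 at an unadjusted p below 0.05 in Detroit 562, FaDu and SCC-9, beside 17.9, 0.0258 and 0% of all genes called. The blocked fit called 0, 1 (S100A3) and 0 of the 4, beside 21.5, 5.6 and 1.97% of all genes. S100A11, the most abundant of them, had 541.6 to 624.8 CPM on average in the groups of Detroit 562 and SCC-9 and 344.5 to 421.5 in FaDu. The 7 untested genes, among them S100A12 and S100B, had at most 13 counts in any library. The fused-type S100 genes, which join S100 domains to the repeats of epidermal structural proteins, were near the floor, with 3 of 7 tested (FLG, TCHH and TCHHL1) and at most 62 counts in any library. In edgeR without the block 0 of the 3 were called with HGF in each line, with 0, 1 and 0 at an unadjusted p below 0.05, and in the blocked fit FLG and TCHHL1 were called down in FaDu, where 3.6% of all genes were.

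Among 12 partners and receptors of S100 proteins 11 were tested, and 2 were called in Detroit 562, both up. Of all genes 17.9% were called there in either direction and 6.16% up. ANXA2, the partner of S100A10, rose from 2046 ± 115 to 2790 ± 232 CPM (SD, n = 3 and 3; log2 fold change 0.45, edgeR adjusted p = 0.001), and CACYBP, which binds S100A6, by 0.43 on the log2 scale (adjusted p = 0.0022). S100A10 and S100A6 themselves had log2 fold changes of 0.04 and -0.09 in that line. In FaDu and SCC-9 0 of the 11 were called in edgeR without the block, with 2 and 0 at an unadjusted p below 0.05. With the block 3 were called in Detroit 562 (ANXA6 in addition, also up), 1 in FaDu (AHNAK, up) and 0 in SCC-9. Of all genes 21.5, 5.6 and 1.97% were called in either direction and 7.13, 2 and 0.562% up. Of the receptors, BSG (basigin, which binds S100A9) had group means of 337.6 to 779.9 CPM and AGER of 0.97 to 8.3, and TLR4 had 0 to 17 counts per library and was not tested.

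The patterns of the members were compared with each other over the 18 libraries after the mean of each line was subtracted, on log2 CPM, as a description, since the libraries share treatment and replicate. S100A2 and S100A16 ran together (Pearson r = 0.9), as did S100A8 and S100A9 (0.87), S100A6 and S100A10 (0.88) and S100A6 and S100P (0.85). The values for S100A6 rest mainly on FaDu, where replicate 3 was lowest for S100A6, S100A10 and S100P in both groups. The highest S100A6 library was 1.75-fold above the lowest in FaDu controls and 1.92-fold with HGF. In the groups of Detroit 562 and SCC-9 it was 1.07- to 1.12-fold. S100A2 ran against S100A8 (-0.71) and S100A9 (-0.59). The values for S100A8 also use the FaDu libraries, where it had 5 to 15 counts, and are uncertain for that reason. S100A4 as counted and S100A10 also ran against each other (-0.57), a value that includes the S100A3 reads. In FaDu replicate 3, where S100A10 was lowest, S100A4 had 248 counts in the control and 328 with HGF. Without the S100A3 reads it had 86 and 102 there, beside 116 and 125 in the other controls and 101 and 110 in the other HGF libraries.

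Over 13157 genes with a mean of at least 50 normalized counts, the 3 genes most like S100A2 were ZNRD1 (0.95), DUSP6 (0.94), a phosphatase of ERK kinases, and UBASH3B (0.93). The gene most like S100A16 was S100A2. Those most like S100A9 were IMPA2 (0.95), CCDC167 (0.93) and IDH2 (0.92), and those most like S100A8 were RHBDL2 (0.92), PALMD (0.92) and EIF2AK1 (0.91). S100A10 was most like TXNRD1 (0.95), a thioredoxin reductase, and its family member S100A11 (0.95). For S100A7 the highest value was 0.77, with ALOX15B, a lipoxygenase of epidermis. That value is uncertain, because it also uses the libraries of Detroit 562 and FaDu, where S100A7 had 1 to 10 counts. The same limit holds for the genes most like S100A8, which had 5 to 15 counts in FaDu libraries.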

How the data were processed

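Total mRNA of 3 cell lines was sequenced in 18 libraries (6 groups of 3). The authors trimmed the reads with Cutadapt (1.16), aligned them to GRCh38.p12 with STAR (2.5.2b, versions from the submitters' processing notes) and counted stranded reads over the whole extent of each gene with BEDTools, so that a read in an overlap counted for each gene. The deposited values are these raw counts, 35304770 to 44003970 per library, and intervals and p-values do not cover PCR duplication. Depth limits S100A7 in Detroit 562 (2 to 10 counts per library) and S100A7, S100A8 and S100P in FaDu (1 to 110). Here R 4.3.3 and edgeR 4.0.16 (TMM, filterByExpr, quasi-likelihood test, Benjamini-Hochberg adjustment over 15475 genes) fitted all 18 libraries with 1 mean per group, and adjusted p are from edgeR unless DESeq2 (1.42.0) is named. All 10 members passed the filter on low counts. Single values were compared by two-sided exact permutation tests.

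The labels give control and HGF libraries shared replicate numbers. Deviations from the group means correlated across genes at 0.376 to 0.707 for same-numbered libraries (log2 CPM, pseudocount 0.5). Other pairings averaged -0.31 to -0.218, which follows from the positive values, because deviations within a group cancel out. Same-numbered libraries thus varied together, but the labels do not say that they came from the same round of culture. The blocked fit takes the numbers as pairs and is given beside each result whose call it changes. Alternatives were the block, DESeq2 with its fold change prior, DESeq2 size factors, other filters on low counts, single-line fits, no minimum fold change and each library left out, and 3 were chosen after seeing the data: taking S100A3 reads off S100A4, the block with no minimum fold change, and a block on the number across lines for the untreated comparisons. The members and gene lists were chosen with earlier results of these data known. All 10 members are named, with the context lists given in the text and the 3 genes most like a member. The tests were tried on simulated data. Promoters are from RefSeq and exon lengths from GENCODE 44. No 2 libraries had equal counts in more than 2.97% of genes.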

Additional observations from a re-analysis of the deposited data

Results flagged for a closer look

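S100A14 differed between lines in the direction of every same-numbered pair, as did S100A4 as counted between Detroit 562 and SCC-9. S100A14 was lower with HGF in 3 of 3 pairs in Detroit 562 (log2 ratios of -0.07 in each) and higher in 3 of 3 pairs in FaDu (0.07 to 0.29) and SCC-9 (0.08 to 0.12). The log2 difference in response was -0.23 for Detroit 562 minus FaDu and -0.17 for Detroit 562 minus SCC-9, with an edgeR adjusted p of 0.579 and 0.633, and of 0.0284 and 0.0685 in the blocked fit. S100A4 as counted was lower in 3 of 3 pairs in Detroit 562 (-0.19 to -0.47) and higher in 3 of 3 pairs in SCC-9 (0.03 to 0.40), a difference of -0.58 with an edgeR adjusted p of 0.261 and of 0.0217 in the blocked fit. With the S100A3 reads taken off, the S100A4 difference was -0.74 (adjusted p = 0.243, and 0.0336 in the blocked fit), with a log2 fold change in SCC-9 of 0.06. The S100A4 counts left in SCC-9 were 55, 63 and 52 in the controls and 51, 82 and 47 with HGF. The SCC-9 pairs thus did not all go the same way without S100A3.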

How the results depend on the processing

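With the replicate block 4, 3 and 2 members were called with HGF in Detroit 562, FaDu and SCC-9, and 6, 6 and 5 with no minimum fold change, against 2, 0 and 0 without it. For the differences in response between lines the block gave 3 members for Detroit 562 minus FaDu, 6 for Detroit 562 minus SCC-9 and 1 for FaDu minus SCC-9, against 0 in each. DESeq2 called 1 member in FaDu, and single libraries left out gave 0 to 1 there. The 132 other counts recomputed, among them all those between untreated lines, stayed within 1.5 times the main count. Between untreated lines, same-numbered libraries correlated at 0.184 to 0.466 for Detroit 562 and FaDu and at -0.189 to 0.181 for each of these and SCC-9, and a block on the number across lines, added after seeing the data, changed no member's call.

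Of the fold changes with HGF, 336 recomputed values kept their sign and their side of the thresholds, 13 passed the thresholds in addition and 12 changed sign. Taking the S100A3 reads off turned the S100A4 log2 fold change in FaDu to -0.062. With single libraries left out, S100A6 ranged from -0.33 to 0.12 in FaDu and from -0.022 to 0.058 in SCC-9, S100A10 from -0.10 to 0.067 and S100A14 from -0.00172 to 0.22 in SCC-9, and S100P from -1.81 to 1.36 in FaDu and from -0.25 to 0.12 in SCC-9. The cause of these shifts was not tested. FaDu S100P moved most without FaDu control 2, which held 110 of its counts where the other controls held 22 and 6.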

Other observations

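MET, the gene of the HGF receptor, stood at 793.4 ± 37.7 CPM (SD, n = 3) in untreated Detroit 562, 289.3 ± 17.7 in untreated SCC-9 and 148.2 ± 11.5 in untreated FaDu.

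S100A7A, the near copy of S100A7 with which it may share reads, had 42 to 52 counts in SCC-9 controls and 16 to 40 with HGF. Its groups did not overlap, and in SCC-9 the HGF libraries lay wholly below the controls for 9.12% of all genes. Its log2 fold change was -0.81 (standard error 0.332, edgeR adjusted p = 1, and 0.134 in the blocked fit), beside -0.61 for S100A7. The fused-type genes TCHHL1, TCHH and FLG encode structural proteins of epidermis and hair follicle. They were higher in untreated FaDu than in untreated SCC-9 (log2 differences of 3.92, 2.47 and 3.31, edgeR adjusted p of at most 0.00303). S100A7, S100A8 and S100A9 were higher in SCC-9. Of all genes 30.7% were called higher in FaDu and 33.5% higher in SCC-9. The fused-type values rest on at most 62 counts in a library, and the other fused-type genes had too few counts to be tested.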
